A study of Arabidopsis thaliana with 25 samples.

Results

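SSRP1 is a subunit of the histone chaperone FACT, and the list described here holds every place in the genome of Arabidopsis seedlings where its chromatin signal was called over that of RNA polymerase II (RNAPII) phosphorylated at serine 5 (S5P). The list, SSRP1 over S5P, was taken whole and has 4199 summits of the 30216 in the 8 lists of the series. A summit is the base at which a called peak is highest. The measurement was chromatin immunoprecipitation followed by sequencing (ChIP-seq) in seedlings of the ecotype Col-0. The plants grew on 0.5x MS medium with 16 h of light at 21 °C and 8 h of darkness at 18 °C. The groups were 4 SSRP1 ChIP libraries and 2 libraries of S5P RNAPII, all from plants with no labelled mutation or transgene. The protocol given under every sample also describes heat at 44 °C for 10 min, but no label says which sample was heated, so the state of these plants in that respect is not known.

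FACT is a dimer of SSRP1 and SPT16 that loosens nucleosomes, mainly through histones H2A and H2B, ahead of the transcribing polymerase and helps to rebuild them behind it. In Arabidopsis it is found along transcribed genes, and plants with little FACT have altered leaves, early flowering and poor seed set. The tail of RNAPII carries S5P mostly in early transcription and serine 2 phosphorylation (S2P) mostly in productive elongation.

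The name of the list sets the factor over an RNAPII form, which was read as SSRP1 libraries against S5P libraries as control. The files do not state this, nor which libraries were pooled. A summit therefore marks an excess of SSRP1 over S5P RNAPII and not occupancy alone, and a gene without a summit may still carry SSRP1. The list has no value per library, so no replicate error and no test over samples could be given, and depth is unknown. Intervals below are exact Clopper-Pearson 95% intervals and cover counting error only. A whole seedling mixes many cell types, so a signal strong in few cells and one weak in most cells cannot be told apart.

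Most SSRP1 over S5P summits lay inside protein-coding genes and some way in from a gene end. Inside such genes were 3832 summits, or 91.3% (90.4 to 92.1). The share of the genome that such genes span is not given here, so how far 91.3% departs from it is not known. For the summits inside genes, the median distance to the nearer end of the gene was 449 bp (441 to 459), with quartiles at 321 and 644 bp. From 200 up to 600 bp lay 2345 summits, 55.8% of the list (54.3 to 57.4). In bins of 50 bp the fullest began at 400 bp and held 385 summits, or 9.17%. Start and end of transcription could not be told apart, nor exons from introns, since the gene table used here gives neither strand nor exons.

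A smaller group of summits lay at the gene ends themselves. Under 100 bp from an end, inside the gene, were 208 summits, or 4.95% (4.32 to 5.65). Within them the first 50 bp held 122 and the next 50 bp held 86. The bin that began at 100 bp was the emptiest below 500 bp, with 62 summits, so that the end group and the main band were separated by a dip. A summit in overlapping genes took the distance to the closest of their ends. In the whole list 90 summits lay in 2 genes, and the end group is not given without them. Outside protein-coding genes but within 500 bp of one were another 224 summits, or 5.33% (4.67 to 6.06), and 143 lay farther away.

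Set side by side, the list of the same factor over S2P had 5451 summits, a median distance of 496 bp and 55 summits under 100 bp from an end, or 1.01% (0.761 to 1.31). The list of SPT16, the partner subunit, over S5P had 7394 summits, a median distance of 440 bp and 831 summits under 100 bp, or 11.2% (10.5 to 11.98). Over S2P, SPT16 had 6578 summits, a median distance of 554 bp and 118 under 100 bp, or 1.79% (1.49 to 2.14). The first of these lists shares its SSRP1 libraries with SSRP1 over S5P, the next shares its S5P libraries, and the third shares none. The differences were not tested, and library depth, which is unknown, can change how many summits a list holds.

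**Figure D1:**
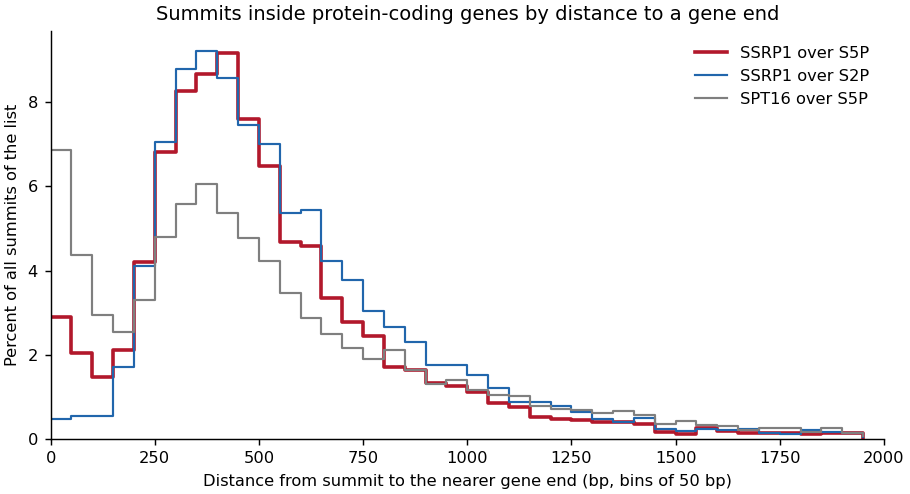
Percent of all summits of a list (vertical axis) by distance from the summit to the nearer gene end in bp (horizontal axis, bins of 50 bp, up to 2000 bp), for SSRP1 over S5P, SSRP1 over S2P and SPT16 over S5P. SSRP1 over S5P has its fullest bin at 400 bp and a second, smaller group at the gene end, which holds 2.91% in the first 50 bp.

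In genes above 1500 bp the distance to the nearer end was similar across classes of gene length, while the relative position moved towards the end. In genes of 1501 to 2000 bp the strongest summit of a gene lay at a median of 455.5 bp from an end. It lay at 452 bp in genes of 2001 to 3000 bp, at 463 bp in both classes between 3001 and 5000 bp, and at 459 bp in longer genes. Over the same classes the position on a scale from 0 at an end to 0.5 at the centre fell from 0.260 to 0.0775. Genes shorter than this have less room: the median was 416 bp for 1001 to 1500 bp, 317 bp for 501 to 1000 bp and 93 bp up to 500 bp.

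The share of genes with a summit also varied with gene length. Of 27444 nuclear protein-coding genes, 3362 had an SSRP1 over S5P summit inside, a background of 12.3%. The share was 1.85% (1.18 to 2.77) in genes up to 500 bp and 6.79% (5.93 to 7.72) from 501 to 1000 bp. It was highest at 15.4% (14.3 to 16.6) from 3001 to 4000 bp and 12.02% (10.5 to 13.7) above 5000 bp. By chromosome it stayed between 11.96% and 12.45%, so no chromosome stood out.

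**Figure D2:**
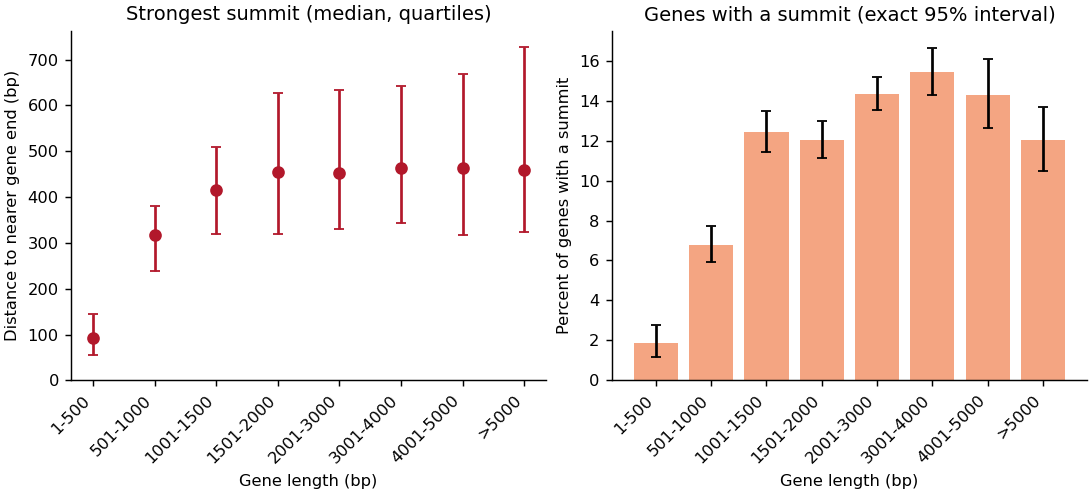
Left, distance of the strongest SSRP1 over S5P summit to the nearer gene end in bp (points, medians; bars, quartiles) by class of gene length in bp; right, percent of genes of each class with a summit (bars from 0; lines, exact 95% intervals). The median distance levels off near 455.5 to 463 bp in the classes above 1500 bp apart from 452 bp at 2001 to 3000 bp, and the share with a summit is lowest at 1.85% in the shortest genes.

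Most genes had a single summit. Exactly 1 was found in 2896 genes, 2 in 390, 3 in 64 and at least 4 in 12, so 466 genes, or 13.9%, had several. Neighbouring summits of a gene were a median of 799.5 bp apart (quartiles 542 and 1350.5 bp). In 245 of the 390 genes with 2 summits these lay on opposite sides of the gene's centre, or 62.8% (57.8 to 67.6). In 56 genes a summit lay under 100 bp from an end and another from 200 up to 600 bp, each kind at 1 end only. In 51 of them (91.1%, 80.4 to 97.0) they stood at opposite ends of the gene. A pair at the same end would have to lie under 600 bp apart, and the lower quartile of spacings was 542 bp. No reference share was computed, so the share of 91.1% was not tested against this spacing.

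SEX1, which encodes the glucan water dikinase of starch breakdown, had the most, with 8 summits spread over a gene of 10099 bp. Their scores ran from 3.12 to 6.11, and the first stood 46 bp from an end. RPP4, an immune receptor gene in a cluster of similar receptors, had 6, with scores from 2.51 to 7.30. The sources used here do not say how reads that match several places were handled, so counts at such clusters are uncertain. GI (GIGANTEA), a clock and flowering gene, had 4: its summit with a score of 15.0 stood 113 bp from 1 end and another of 8.56 stood 310 bp from the opposite end. The receptor kinase gene LYK3 had 4 as well, with scores from 4.14 to 10.4; that of 6.94 stood 22 bp from an end and that of 10.4 stood 426 bp from the opposite end. AT1G14250 had 4, with scores from 3.36 to 6.81. Of the remaining genes with 4, the first in order of locus were CLV1, the receptor kinase that limits the shoot meristem, LACS1 of cuticular wax synthesis and the auxin exporter gene ABCB19, and in all 3 the strongest lay between 465 and 497 bp from an end.

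The score of a summit is the authors' own, the −log10 of the q-value, and ranks summits within the list. The lowest was 2.002, the median 4.88 with quartiles 3.48 and 6.995, and the highest 62.1. Just inside the threshold stood PHYA, the far-red photoreceptor gene, with 2.004 at 610 bp from an end, and MEE14 and AT5G17190, each with 2.003, at 505 and 210 bp. Scores of at least 5 were found in 1789 genes, or 6.52% of all genes. Scores of at least 10 were reached by 420 summits, and 386 genes held at least 1 of them, a background of 1.41%.

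Inside genes, median scores were highest from 200 up to 500 bp. The median was 4.34 under 100 bp from an end and 4.51 from 100 up to 200 bp. It was 5.30, 5.43 and 5.31 in the next 3 bins of 100 bp and then 4.496 from 500 up to 1000 bp and 4.14 beyond. The quartiles of these bins overlapped throughout, as the plot of score by distance shows. The share of summits with a score of at least 10 was 4.81% under 100 bp, 13.8% from 300 up to 400 bp and 4.0% from 1000 bp on. Outside genes the median was 4.70 within 500 bp of a gene and 6.06 farther away, the highest of all these classes. Read the other way, summits under 100 bp made up 8.80% of those with a score below 3 and 2.36% of those from 10 up to 20.

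Whether the partner subunit was called at the same place, over another polymerase form and from other libraries, also changed with distance and score. An SPT16 over S2P summit lay within 250 bp of 2543 SSRP1 over S5P summits, or 60.6% (59.1 to 62.0), and these pairs took in 38.4% of the SPT16 list (37.2 to 39.5). Under 100 bp from an end the share was 23.1% (17.5 to 29.4), against 69.6% (66.1 to 73.0) from 300 up to 400 bp and 45.8% (40.3 to 51.4) from 1000 bp on. By score it went from 50.2% (46.3 to 54.1) below 3 to 79.8% (75.4 to 83.7) from 10 up to 20, and 32 of the 39 summits of at least 20 had such a neighbour. At the level of genes, 3019 held both, 89.8% of the SSRP1 over S5P genes and 58.1% of the SPT16 over S2P genes. Of all protein-coding genes, 18.9% had an SPT16 over S2P summit.

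The list of SSRP1 over S2P uses the same SSRP1 libraries, so a shared summit is no independent evidence, and the shares are given to compare distances within the list. Within 250 bp of such a summit lay 85.3% (83.8 to 86.7) of the summits from 200 up to 600 bp, but 18.8% (13.7 to 24.7) of those under 100 bp. Of the summits outside genes it was 25.9% (20.3 to 32.1) within 500 bp of a gene and 79.7% (72.2 to 86.0) farther away. All 39 summits with a score of at least 20 had an S2P neighbour, which allows a share down to 91.0%, and below a score of 3 it was 58.6% (54.7 to 62.4).

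**Figure D3:**
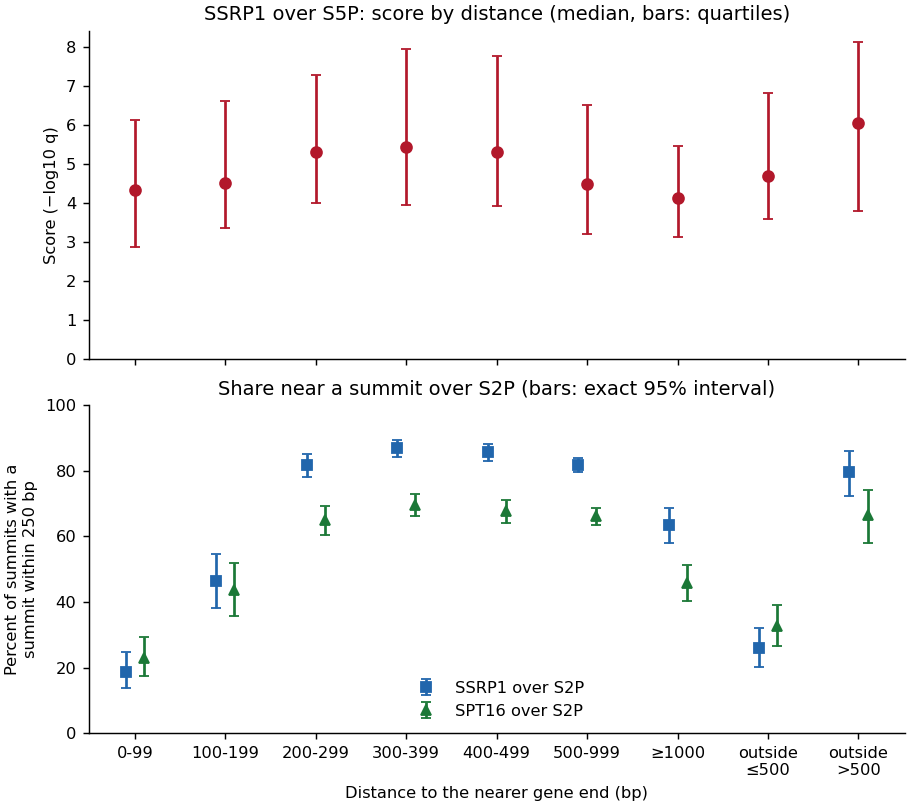
Top, score (−log10 q) of SSRP1 over S5P summits by distance to the nearer gene end in bp, inside and outside protein-coding genes (points, medians; bars, quartiles); bottom, percent of the same summits with an SSRP1 over S2P or SPT16 over S2P summit within 250 bp (bars, exact 95% intervals). Summits under 100 bp from an end have shares of 18.8% and 23.1%, below those of the bins from 200 to 1000 bp.

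Of the 3362 genes with an SSRP1 over S5P summit, 268 had none over S2P, and more of these had their strongest summit near a gene end. Of all protein-coding genes, 17.4% had an SSRP1 over S2P summit. In the 268 genes the strongest summit lay at a median of 242 bp from an end, and 79 of them, or 29.5%, had it under 100 bp. In the 3094 genes with both it lay at 445 bp, and 76, or 2.46%, had it under 100 bp. The median scores were 3.83 without and 5.33 with a summit over S2P. Only 1.01% of the SSRP1 over S2P summits lay under 100 bp from an end. More end summits among genes without an S2P summit are therefore no separate result about these genes. As the lists share the SSRP1 libraries, the difference was not tested. The strongest of the 268, picked here after their values were seen, included bZIP6, a transcription factor gene, with a score of 12.8 at 103 bp. GLX2-5, a glyoxalase gene, had 11.9 at 23 bp, GSA2 of tetrapyrrole synthesis 11.5 at 22 bp, the calcium-dependent kinase gene CDPK9 11.1 at 97 bp and LARP1a, of an RNA-binding protein, 10.8 at 35 bp. In bZIP6, GLX2-5 and CDPK9 the SPT16 over S5P list, which shares the S5P libraries, had a summit at 115, 3 and 84 bp, within 20 bp of that of SSRP1. In GSA2 and LARP1a its strongest summit lay 1889 and 3160 bp away from that of SSRP1.

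Gaps to the neighbouring gene differed between genes with end summits and genes with summits farther in. In the 155 genes whose strongest summit lay under 100 bp from an end, 0.565% of all genes, the gap to the next protein-coding gene had a median of 210 bp at the end with the summit and 713 bp at the other end. In the 2266 genes with the strongest summit from 200 up to 600 bp it was the reverse, 1299.5 bp at the end nearer the summit and 445 bp at the other. Gaps of at most 500 bp were found on the summit's side in 60.6% of the first group and 30.0% of the second. At the other end they were found in 42.6% and 51.9%. The share over all genes was not computed, so which group departs from it is not known. To which gene of a close pair a summit belongs cannot be told from its position.

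Inside protein-coding genes, the 2 highest scores, which are also the highest of the list, fell in genes known here by locus only. AT3G61028 had 62.1 at position 22582379 of chromosome 3 (TAIR10), 906 bp from an end, and AT2G31590 had 60.7 at position 13447112 of chromosome 2, 283 bp from an end. The next inside a gene was CP29, a chloroplast RNA-binding protein gene, with 41.1 at 766 bp. AT3G22550 with 34.2 at 1079 bp and AT5G50450 with 34.1 at 363 bp followed, and then GRP7, a glycine-rich RNA-binding protein gene under clock control, with 33.4 at 723 bp. These leaders lay at many distances, and 12 of the 20 had no symbol beyond the locus.

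Others of the 20 highest had known products. XTH9, a xyloglucan-modifying enzyme of the cell wall, had 27.0 at 795 bp, and the EXORDIUM-like gene EXL5 had 26.3 at 575 bp. OEP6 and OEP16-1, of proteins of the plastid outer envelope, had 26.5 at 286 bp and 25.8 at 514 bp, and the cytochrome P450 gene CYP78A7 had 26.0 at 853 bp. In both SPT16 lists CYP78A7 had no summit.

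AT5G62720 was the highest-scoring gene under 100 bp from an end, with 29.0 at 59 bp. Its strongest summit over S2P inside the gene, with 27.5, stood 768 bp from an end and 2842 bp away from the first. A different S2P summit, inside or outside the gene, lay within 250 bp of the first, as for all 39 summits of at least 20. In neither SPT16 list did AT5G62720 have a summit. Next in that class came AT4G33310, a gene of 261 bp, with 12.9 at 91 bp, and AT2G35470 with 12.8 at 6 bp. Beyond 1000 bp from an end the highest after AT3G22550 were AT5G43020, with 29.6 at 1188 bp, and ADS2, a fatty acid desaturase gene of the cold response, with 21.1 at 1049 bp.

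The gene of SSRP1 (symbol HMG in the gene table), GTA2, which encodes SPT5, and ELF7 of the PAF1 complex had none. SPT16 had 1 with a score of 2.997 at 229 bp. In a list of 19 transcript elongation genes, 3 had a summit, or 15.8% (3.38 to 39.6), near the background of 12.3%. Beside SPT16 these were TFIIS with 6.44 at 323 bp and NRPB1, the largest RNAPII subunit, with 5.56 at 186 bp. Of 17 genes of HMG proteins and histone chaperones 1 had a summit, or 5.88% (0.149 to 28.7), an interval that also holds the background: HMGB3 with 9.12 at 468 bp.

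To describe functions, 25 lists with 865 genes were set against the background of 12.3% of all protein-coding genes. Of their members 287, or 33.2%, had a summit. The lists were put together from well-known named genes with earlier results of these data known, so their shares describe these genes and support nothing about their pathways. Near-identical copies within families, such as tubulin, histone, ubiquitin and SAUR genes, share reads, so that a summit may stand in the wrong copy.

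The largest share was that of the histone list, with low scores. Of 23 histone genes 14 had a summit, or 60.9% (38.5 to 80.3), but their median score of 2.90 was under the 5.20 of all genes with a summit. The highest were HTA13, an H2A gene, with 10.8 at 201 bp, and HIS4, of histone H4, with 9.07 at 349 bp. Among other housekeeping lists, tubulin, actin, ubiquitin and similar genes had 16 of 29, or 55.2% (35.7 to 73.6), led by the tubulin genes TUB5 with 14.5 at 690 bp and TUA3 with 11.5 at 447 bp. Ribosomal protein genes had 15 of 30 with scores up to 8.66 in RPL27A, but 427 names searched for this list matched those 30 genes alone, so much of the family is not covered. Translation factors had 6 of 11, among them the elongation factor 2 gene LOS1 with 7.27 at 330 bp, and ACT repeat proteins, a family of small-molecule binding proteins, had 6 of 10.

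Genes for RNA-binding proteins of the glycine-rich and chloroplast kinds had 7 of 12, or 58.3% (27.7 to 84.8), and 3 of the 12, CP29, GRP7 and GRP2, reached a score of 10. GRP2 had 12.3 at 486 bp. Of all genes, 1.41% reached that score.

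Stress-related lists were above the background as well. Ethylene response factor (ERF), WRKY, ZAT and jasmonate genes had 33 of 75, or 44.0% (32.5 to 55.9). ERF6 had 13.4 at 608 bp, the jasmonate repressor gene JAZ9 12.2 at 847 bp and OPR3 of jasmonate synthesis 11.5 at 466 bp. Calmodulin and touch genes had 11 of 22, with the kinase gene CPK28 highest at 10.1 and a median of 3.47. Cold, drought and abscisic acid genes had 14 of 39, or 35.9% (21.2 to 52.8), and a median score of 7.50, the highest among lists with at least 10 genes called. KIN2, a cold-induced gene, had 19.5 at 398 bp, and CBF2 and DREB2A, transcription factors of cold and drought, had 8.37 at 180 bp and 7.91 at 187 bp.

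Glucosinolate and defence genes had 20 of 50, with the defensin gene LCR69 at 23.1 and 474 bp, and PAD4, a regulator of immunity, at 11.6 and 588 bp. Heat shock genes had 9 of 32, or 28.1% (13.7 to 46.7), led by HSP81-3, an HSP90 gene, with 12.1 at 407 bp. It is not known whether any of these plants had been heated.

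Among growth-related lists, auxin genes had 19 of 51, or 37.3% (24.1 to 51.9), led by the response factor gene ARF6 with 16.9 at 438 bp and the auxin importer gene AUX1 with 15.8 at 486 bp. Homeodomain leucine zipper (HD-ZIP) genes had 9 of 20, with PHB, a leaf polarity gene, at 14.1 and 460 bp. The small auxin up RNA (SAUR) genes, which are short, had 17 of 78, or 21.8% (13.2 to 32.6). Cuticle and very-long-chain lipid genes had 16 of 35 and cell wall genes 33 of 96, or 34.4% (24.98 to 44.8). Among the latter XTH9 was followed by XTH4 with 18.4 at 666 bp and the fasciclin-like gene FLA17 with 17.4 at 851 bp.

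Clock genes had 8 of 29, or 27.6% (12.7 to 47.2), all 8 with scores of at least 5. The MYB-like clock gene RVE7 had 15.2 at 490 bp, GI 15.0 at 113 bp, and TOC1, an evening gene of the core clock, 7.38 at 304 bp. Seed storage and pollen genes, which seedlings should hardly transcribe, had none of 26, with an upper bound of 13.2%. That interval holds the background of 12.3%, so this share cannot be told from that of all genes.

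Photosynthesis lists had fewer genes with a summit over S5P than over S2P, as most lists had. Only the MADS-box and Polycomb list, with 6 against 5, and the seed and pollen list, with none in either, did not. Calvin cycle genes had 2 of 19 over S5P, or 10.5% (1.301 to 33.1), but 16 of 19, or 84.2%, in SSRP1 over S2P. Those with both were CP12-3, a regulatory protein gene, with 4.78 over S5P and 10.3 over S2P, and HCEF1, of the chloroplast fructose bisphosphatase, with 3.47 and 8.93. The genes RBCS2B, of the small subunit of Rubisco, GAPA, of glyceraldehyde phosphate dehydrogenase, and CP12-1 had no summit over S5P and 8.16, 9.40 and 8.98 over S2P. For SPT16 the counts were 1 over S5P and 14 over S2P.

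Photosystem and electron transport genes had 10 of 55 over S5P, or 18.2% (9.08 to 30.9), and 28 over S2P. The strongest over S5P were Lhca6, an antenna gene, with 13.2 at 415 bp and FNR2, of ferredoxin reductase, with 10.8 at 706 bp, while the other 8 were below 5. PETE1, a plastocyanin gene, had 10.1 over S2P and no summit over S5P. Aquaporin genes had 5 of 21 over S5P and 12 over S2P, and light signalling genes 8 of 33 and 17. Over all genes the background was 12.3% over S5P and 17.4% over S2P. These differences between lists that share the SSRP1 libraries were not tested.

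**Figure D4:**
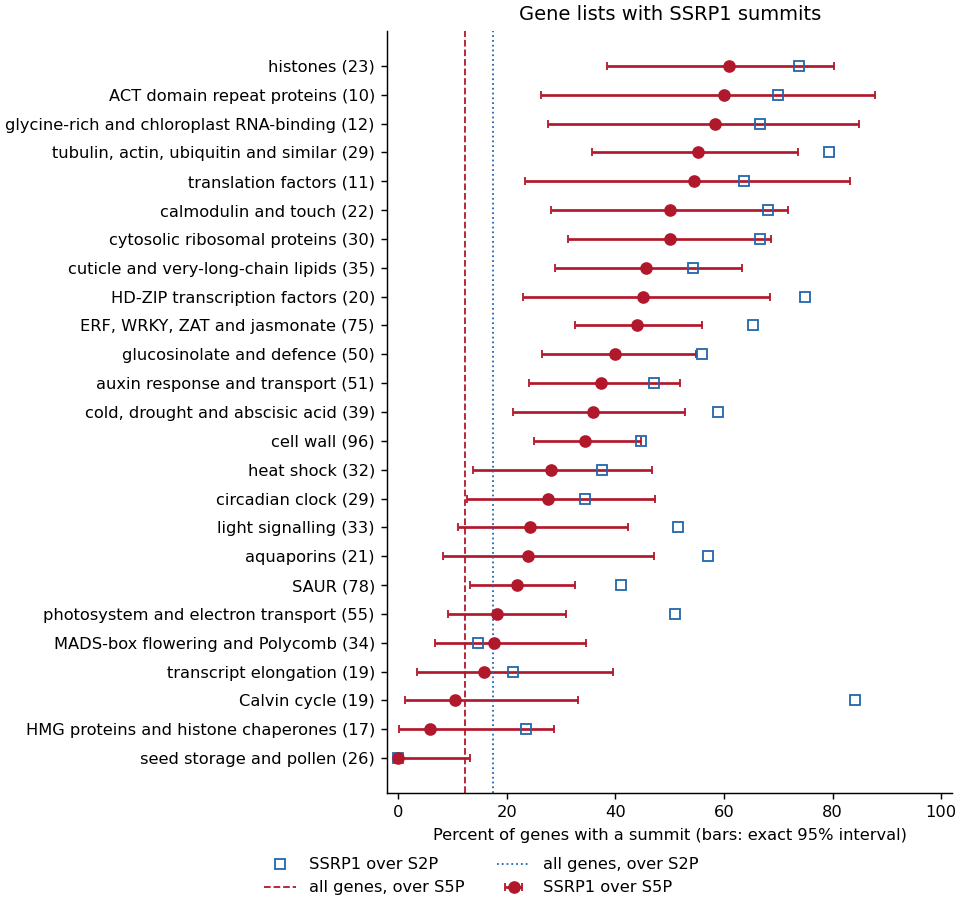
Percent of genes of each list (number of genes in brackets) with an SSRP1 summit over S5P (filled points; bars, exact 95% intervals) and over S2P (open squares); the vertical lines mark the shares of all protein-coding genes, 12.3% over S5P and 17.4% over S2P. Histone genes are at 60.9% over S5P, and Calvin cycle genes are at 10.5% over S5P and 84.2% over S2P.

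The lists also differed in where the summit stood. Of all 3362 genes with a summit, 67.4% had the strongest from 200 up to 600 bp from an end and 24.3% at 600 bp or more. Cell wall genes had it at 600 bp or more in 22 of 33, or 66.7%, with a median of 702 bp. The 33 genes had a median length of 2153 bp, against 2303.5 bp for all genes with a summit. The cellulose synthase genes CESA2 with 11.5 at 702 bp and CESA1 with 8.13 at 981 bp, and the expansin gene EXPA5 with 6.90 at 951 bp, were among them. Cuticle genes had 8 of 16 there, among them the fatty acid elongase gene KCS5 with 7.38 at 991 bp, and glucosinolate and defence genes 10 of 20.

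Light signalling genes had 5 of 8 at 600 bp or more, among them the blue light receptor genes PHOT1 with 4.87 at 2155 bp and CRY2 with 3.34 at 1588 bp. From 200 up to 600 bp SAUR genes had 15 of 17, HD-ZIP genes 8 of 9 and histone genes 11 of 14. Their medians were 344, 460 and 322.5 bp, against 432 bp for all genes with a summit. The SAUR and histone genes with a summit were short, with median lengths of 932 and 954 bp, and a distance cannot exceed the gene's middle. Of the other histone genes, 2 had it under 100 bp. The only one farther in was HON4, a linker histone-like gene of 3043 bp, with 5.22 at 1442 bp. All 6 ACT repeat genes, with a median length of 3069.5 bp, lay between 311 and 500 bp.

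**Figure D5:**
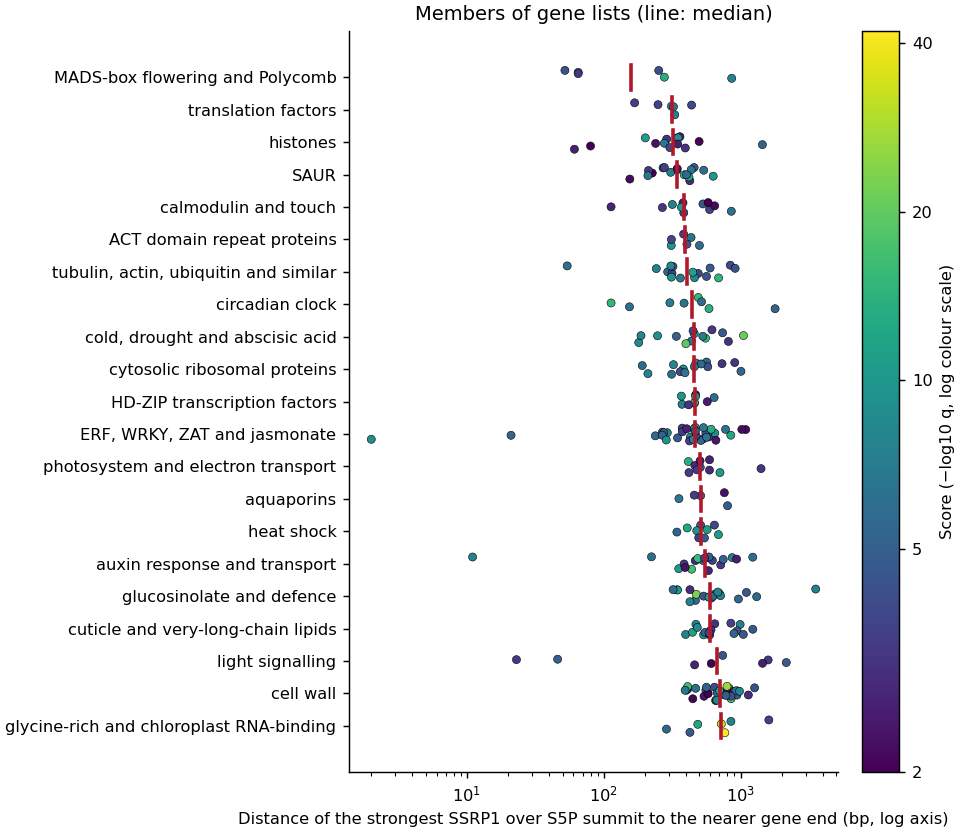
Distance of the strongest SSRP1 over S5P summit to the nearer gene end in bp (log axis) for each member with a summit, in the lists with at least 5 such members; colour gives the score (−log10 q) and the red line the median. Cell wall genes have a median of 702 bp and MADS-box flowering and Polycomb genes of 158.5 bp, with 3 of their 6 points under 100 bp.

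Of the 287 list members with a summit, 11 had the strongest under 100 bp from an end, and they are named here after their values were seen. Their share of 3.83% was near the 4.61% of all genes with a summit. Of 34 MADS-box flowering and Polycomb genes 6 had a summit, or 17.6% (6.76 to 34.5), an interval that holds the background of 12.3%. These 6 held 3 of the 11: AP1, of floral identity, with 6.74 at 65 bp, SOC1, a flowering promoter gene, with 4.37 at 52 bp and MAF3, a flowering repressor gene, with 3.28 at 65 bp. The others in that list were EMF1, which acts with Polycomb, with 13.5 at 277 bp, the floral repressor gene SVP with 7.83 at 860 bp and VRN5 with 4.01 at 252 bp. Over S2P, SOC1 had its strongest summit at 665 bp with 9.43, AP1 at 64 bp with 6.99, and MAF3 had none. SOC1 had 2 summits over S5P, of which the stronger is given here.

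Jasmonate and ethylene genes gave 2 more. AOC4, an allene oxide cyclase gene, had 8.80 at 2 bp, and over S2P 3.75 at 345 bp. ERF7 had 5.26 at 21 bp, and over S2P 18.6 at 342 bp. These are the strongest summits only: over S5P AOC4 had 2 summits and ERF7 had 3. Of the auxin repressor genes, IAA8 had 7.83 at 11 bp and no S2P summit.

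The UV-B receptor gene UVR8 had 5.001 at 46 bp, against 2.83 at 1661 bp over S2P, and BBX22, a light response regulator, had 3.29 at 23 bp, against 30.9 at 564 bp. TUB2, a tubulin gene, had 6.13 at 54 bp, against 5.06 at 960 bp. It had 2 summits over S5P, of which the stronger is given. For UVR8, BBX22 and TUB2 the S2P values are those of the strongest summit in the gene. A weaker S2P summit at the same end would not show here. The last were both histone genes with low scores, HTR11, of an H3-like protein, with 2.63 at 61 bp and HTB9, an H2B gene, with 2.01 at 80 bp.

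Outside protein-coding genes lay 367 summits, with a median distance of 282 bp to the nearest such gene and 126 of them within 100 bp. In no annotated gene of any kind were 255, and the others lay in noncoding RNA genes or pseudogenes, among them 23 in long noncoding RNA genes only, 18 in genes of small nucleolar RNAs only and 6 in microRNA genes only. The highest was 54.8 at position 1873852 of chromosome 1, 122 bp from EMB1444, with an SPT16 over S2P summit 46 bp away. The next was 54.2 at position 22513642 of chromosome 3, 398 bp from AT3G60920, with the nearest SPT16 over S2P summit 4800 bp away. Then came 33.0 at 36 bp from WCRKC1, a thioredoxin-like gene. Of the 143 summits more than 500 bp from a gene, 17.5% had a score of at least 10, against 10.0% of the whole list.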

How the data were processed

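The deposited list gives a position and a score per summit. The tools named in the submitters' processing notes are MACS3, deepTools, Bowtie2, Trimmomatic 0.39 and SAMtools 1.16.1, with the TAIR10 build; the sources used here do not give their settings. As deposited, the authors' score is −log10 q, and its floor corresponds to q = 0.01. The list has no column per library, so depth is unknown and the spread between libraries was not analysed here. Whether libraries came from separate cultures is not stated.

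From these files the position, counted from 1, was set against 27444 nuclear protein-coding genes of a RefSeq gene table (TAIR10.1, no strand or exons, no coordinates printed). The distance of a summit is to the nearer end of the gene that holds it, and to the closest end where genes overlap. Each overlapping gene was counted, and the strongest summit stood for a gene. Neighbours in other lists lie within 250 bp. Python 3.11.15, pandas 2.3.3, NumPy 2.4.6, SciPy 1.17.1 and matplotlib 3.10.9 were used, and the annotation step was tested on simulated summits. List names (1481, aliases included) matched 865 genes by symbol or unique synonym, after 10 names that matched another gene were dropped. Members and lists were chosen with earlier results of these data known. Genes named were drawn from the 20 highest scores, the 3 highest per distance class and outside genes, up to 5 per list, the 5 with most summits (ties in order of locus), the elongation factors' genes and the 3 lowest scores, without printing all of them. CBF2, DREB2A, KCS5, CESA1, EXPA5, CLV1, ABCB19 and the photosynthesis genes without a summit over S5P were named after their values were seen, as were those the text marks so. Alternatives were stricter scores, other windows, gaps and gene sets. A planned split into 5′ and 3′ sides was not run.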

Additional observations from a re-analysis of the deposited data

How the results depend on the processing

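No paired analysis was possible because each list holds pooled calls with no value per library; for the same reason no library could be left out, and the side of the gene at the 5′ end was not run without strand. Of 74 alternatives, 38 stayed within their interval or within 1.5 times the count and 36 moved. At scores of at least 5 and 10 the list held 2027 and 420 summits, the share within 500 bp of an end was 64.1% and 63.3% (58.8% for all), the median distance inside genes 426 and 426.5 bp, and the share of genes called 6.52% and 1.41%. That median was 432 bp for the strongest summit per gene, and 466 and 488 bp in genes of at least 1000 and 2000 bp. With genes of any biotype 93.9% of summits lay inside. Windows of 300 and 1000 bp gave 24.2% and 90.2%, and summits within 500 bp added to genes gave 14.4%. SPT16 over S2P lay within 100 bp of 43.4% and within 500 bp of 73.8% of summits. For summits from 200 up to 600 bp, SSRP1 over S2P lay within 100 bp of 83.3% and within 500 bp of 89.7%, gaps chosen after the data were seen.

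At scores of at least 5 the counts of genes with a summit were 4 histone, 3 ACT repeat, 9 tubulin, actin and ubiquitin, 3 translation factor, 3 calmodulin and touch, 8 cuticle, 5 HD-ZIP, 19 ERF, WRKY and jasmonate, 11 auxin, 19 cell wall, 5 heat shock, 1 light signalling, 1 aquaporin, 8 SAUR, 2 photosystem, 3 MADS-box and Polycomb and 0 Calvin cycle genes. The other lists stayed within 1.5 times.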
